A study of Mus musculus with 6 samples.

Results

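The mitotic kinases described here were 10 genes, Cdk1, Aurka, Aurkb, Plk1, Nek2, Bub1, Bub1b, Ttk, Pbk and Melk. Their members on the array were all non-control probes that carried one of these names, which came to 12 probes on 21 spots. The array as a whole carried 34797 gene names on 55681 probes. G1E-ER-GATA-1 cells, a mouse erythroblast line without its own GATA-1 that carries GATA-1 joined to the estrogen receptor's hormone-binding domain, had been electroporated at 0 h and 24 h with either Foxo3 siRNA (the knockdown samples) or nontargeting siRNA (the control samples). Both groups received β-estradiol at 24 h, which turns the fusion protein on, and both were harvested at 48 h in medium with erythropoietin and Kit ligand. Total RNA of 3 Foxo3 siRNA and 3 nontargeting siRNA samples was labelled with Cy3 and hybridised to 6 one-colour arrays of 60-base probes. All samples came from 1 cell line, and the labels do not say whether the replicates were separate cultures, so p-values measure the spread between these samples, which may be technical.

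Mitotic kinases drive a cell from G2 through division. CDK1 with cyclin B triggers entry into mitosis, Aurora A and PLK1 build the spindle poles, NEK2 separates the centrosomes, and Aurora B corrects faulty attachments of chromosomes to the spindle. BUB1, BUBR1 (the product of Bub1b) and TTK, also called MPS1, form the checkpoint that holds the cell until every chromosome is attached. Their transcripts rise in late S phase and G2 and are low in cells that have left the cycle, and red cell precursors leave the cycle in the last steps of maturation. An array of a whole culture cannot tell fewer dividing cells from less kinase RNA per cell.

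A probe's level is given below as log2 of its signal minus the 75th percentile of its array, so that 0 is the level of that percentile. A probe was kept for testing when, in 1 group or both, the scanner software called it well above background 3 times out of 3, which left 27031 probes. A kept probe was called changed at a Benjamini-Hochberg adjusted p under 0.05 from limma over all kept probes. Of the 12 kinase probes, 8 were kept, 1 each for Cdk1, Aurka, Plk1, Nek2, Bub1, Bub1b, Pbk and Melk. The single probes of Aurkb and Ttk and 2 further Cdk1 probes were not kept. Levels of different probes cannot be set against each other, so each comparison below is within a probe.

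Between 20343 and 37532 of the 59305 non-control spots per array were well above background. The lowest count was on Foxo3 siRNA replicate 3, where the software had replaced 50.2% of spots by a surrogate value, against 16.7% to 29.3% on the other arrays. The 6 arrays lay on 1 slide, the nontargeting siRNA arrays and Foxo3 siRNA replicate 1 in its first row and the other 2 Foxo3 siRNA arrays in its second row. The Foxo3 probe on its RefSeq mRNA read −0.46, −1.29 and −1.89 after Foxo3 knockdown and 1.23, 1.28 and 1.12 on the control arrays, a fall of 2.42 on the log2 scale (SE 0.340, limma adjusted p = 0.00542). This probe was above background on 2 of 3 Foxo3 siRNA arrays and passed the filter only through the control group, where it was high. The size of its fall is therefore uncertain. Within the first slide row the same probe differed by −1.67 (adjusted p = 0.0341). A second Foxo3 probe differed by 0.25 (SE 0.162, adjusted p = 0.259). Of erythroid markers, 10 of 10 were measured, and their summed linear level was 3941 to 5296 times the 75th percentile after Foxo3 knockdown and 5654 to 6253 times with nontargeting siRNA. The brightest probes, such as those of Hba-a1, Hbb-b1 and Alas2, carry most of this sum. By gene, 1 of the 10 was called higher and 0 lower, with a median difference of −0.09. Over all measured genes 13% were called higher and 13.1% lower.

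The transcripts of 8 mitotic kinases were higher after Foxo3 knockdown, each by at least 4-fold with the signals scaled as above, with rises on the log2 scale from 2.49 for Plk1 to 3.85 for Bub1. Of the kinase probes 6 were above background on all 6 arrays, and all 6 were called higher when only such probes were tested, whereas 22.2% of the 17934 probes tested in that way were called higher. Pbk and Melk passed the filter only through the Foxo3 siRNA group, where they were high, so they had to differ to be tested and add nothing to that count. Among all 27031 kept probes 12.1% were called higher and 0.566% at least 4-fold higher. For each of the 6 kinase probes above background on every array, all 3 Foxo3 siRNA values lay above all 3 nontargeting siRNA values. This held for 21.5% of the kept probes with a value on every array. It also held for Pbk and Melk, which the filter favoured. Over the 6 alone the median rise was 2.78. The median rise of all 8 kept kinase probes was 2.92, or 7.58-fold, and the median difference over all kept probes was −0.16, so that the kinase median stood 3.08 above it. With normexp background correction the median rise was 1.91, and with dim values raised to a floor common to all arrays it was 2.00, so that some kinases then fell short of 4-fold. At that floor the order also turned, with Aurka at 2.63, Plk1 at 2.49, Nek2 at 2.16, Bub1 at 2.09, Bub1b at 1.92, Cdk1 at 1.79, Pbk at 1.18 and Melk at 1.08. Besides the kinases, 50 of the kept probes rose by as much as Plk1 or more.

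**Figure D1:**
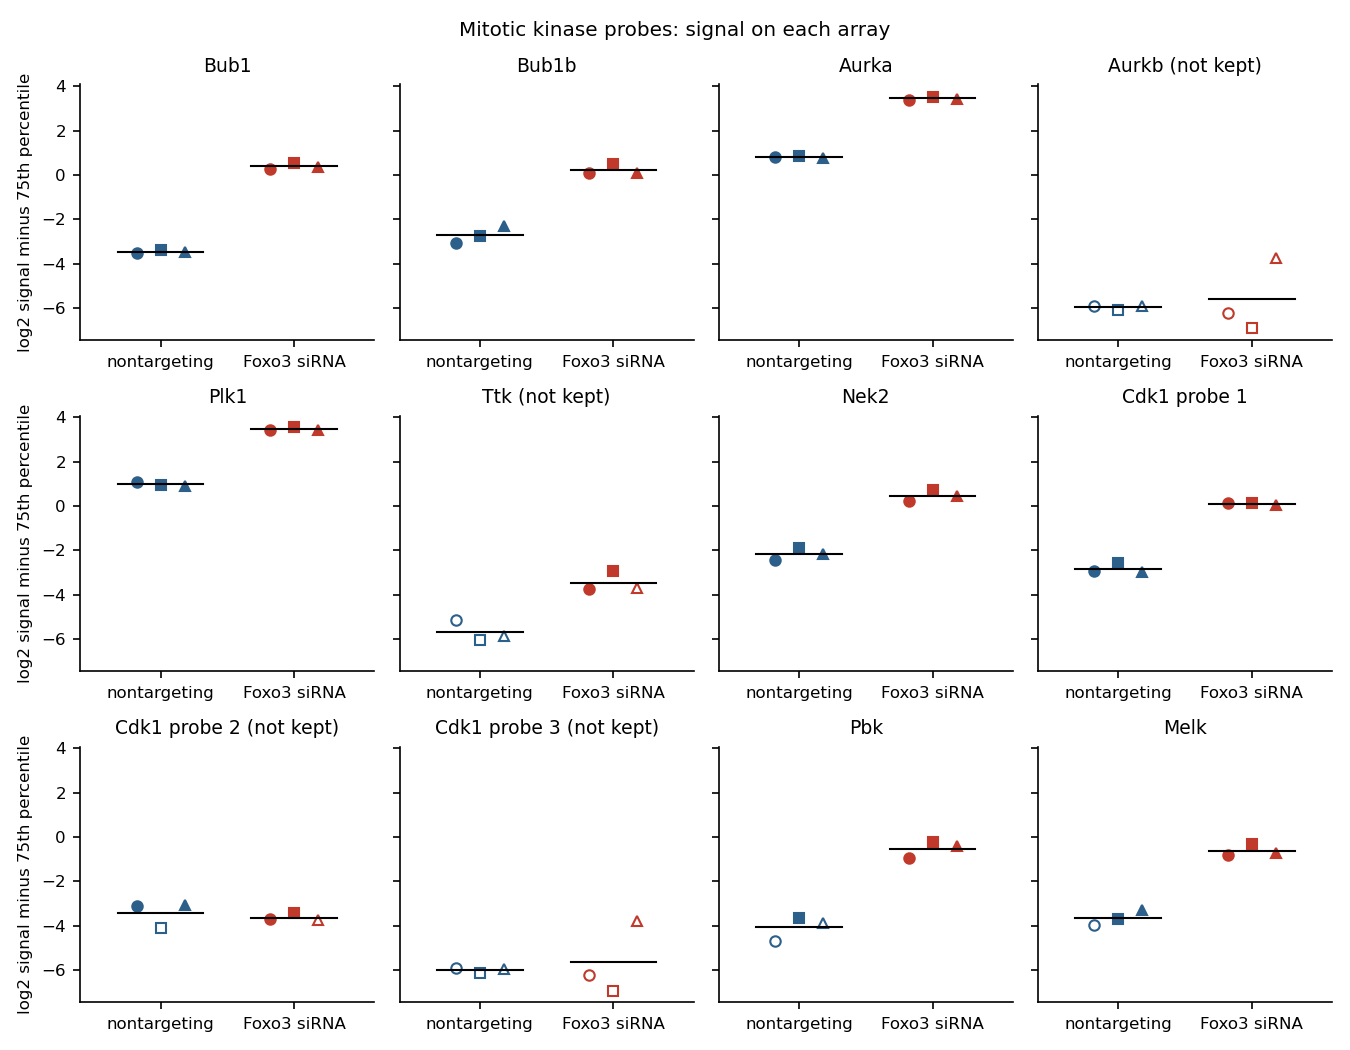
Level of each of the 12 kinase probes on each array, as log2 signal minus the array's 75th percentile. Blue marks are nontargeting siRNA and red marks Foxo3 siRNA (circle, square and triangle for replicates 1, 2 and 3), hollow where the probe was not well above background on that array, and the black line is the group mean. The red marks lie above the blue ones in all 8 kept panels and for Ttk.

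Cdk1, the kinase that starts mitosis, was carried by 3 probes. The kept probe, at chr10:68801072-68801131 on the minus strand of mm9 (the build the array's annotation gives for all probes here), read 0.11, 0.12 and 0.02 with Foxo3 siRNA. It read −2.91, −2.60 and −3.00 on the control arrays. The Foxo3 siRNA values stayed close together and lay far above the control values. The rise was 2.92 on the log2 scale (SE 0.138, 95% confidence interval 2.59 to 3.26, limma adjusted p = 0.000506), or 7.59-fold. Before scaling, the processed signals were 373, 554 and 400 units with Foxo3 siRNA against 39.9, 56.1 and 38.0 units on the control arrays.

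The second Cdk1 probe overlapped the kept one and was not well above background on any array. It lies at chr10:68801053-68801112 on the minus strand, and shares 41 of its 60 bases with the kept probe. The bases that the overlapping probes do not share are shown because they are what distinguishes the probes.
Cdk1 kept probe, its 19 unshared bases: ttcttaatttcctacgtat
Cdk1 second probe, its 19 unshared bases: tataattctgtatatgtgc
Both probes consist of 81.7% A and T. The second probe read −6.24, −6.94 and −3.78 after Foxo3 knockdown and −5.93, −6.11 and −5.94 on the control arrays, where the value of −3.78 is from the array with the most surrogate values. The remaining Cdk1 probe, at chr10:68799513-68799572, read −3.71, −3.45 and −3.75 after Foxo3 knockdown and −3.13, −4.09 and −3.08 on the control arrays. Its groups overlapped, and it was above background on 2 arrays of each group. With every probe tested and no filter, this remaining probe differed by −0.20 (SE 0.328, limma adjusted p = 0.886). The statement about Cdk1 therefore rests on 1 of its 3 probes.

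Aurka encodes Aurora A, the centrosomal kinase that matures spindle poles and activates PLK1. Its probe (chr2:172181726-172181785, minus strand) read 3.40, 3.51 and 3.45 after Foxo3 knockdown and 0.81, 0.86 and 0.78 on the control arrays. The 3 arrays of a group lay close together, and the groups were far apart. Aurka rose by 2.63 (SE 0.101, 95% confidence interval 2.39 to 2.87, limma adjusted p = 0.000418), or 6.20-fold.

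Aurkb encodes Aurora B, the catalytic subunit of the chromosomal passenger complex. Its only probe (chr11:68865105-68865164, plus strand, 80% A and T) was not well above background on any array. It read −6.21, −6.89 and −3.74 after Foxo3 knockdown and −5.90, −6.08 and −5.90 on the control arrays. The highest reading was on Foxo3 siRNA replicate 3, the array with the most surrogate values. No fold is read for Aurkb.

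Plk1 encodes the polo-like kinase of mitotic entry, spindle assembly and cytokinesis. Its probe (chr7:129313220-129313279, plus strand) read 3.43, 3.55 and 3.43 after Foxo3 knockdown and 1.09, 0.96 and 0.89 on the control arrays. Every knockdown array was higher than every control array by more than the whole spread within a group. The rise was 2.49 (SE 0.111, 95% confidence interval 2.22 to 2.75, limma adjusted p = 0.000506), or 5.61-fold. It was the smallest of the 8 as scaled here, but Plk1 was second to Aurka at the common floor (2.49) and with normexp background correction (2.36).

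Nek2 encodes the kinase that frees the centrosomes from each other before they move apart. Its probe (chr1:193656343-193656402, plus strand) read 0.21, 0.71 and 0.45 after Foxo3 knockdown and −2.46, −1.89 and −2.18 on the control arrays. In both groups replicate 2 was the highest array and replicate 1 the lowest. Nek2 rose by 2.63 (SE 0.197, 95% confidence interval 2.16 to 3.11, limma adjusted p = 0.00102), or 6.20-fold.

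Bub1, the checkpoint kinase that marks centromeric chromatin by phosphorylating histone H2A, had the largest rise of the kept kinases as scaled here. Its probe (chr2:127626988-127627047, minus strand) was printed on 10 spots of every array, while each other kinase probe had 1 spot. The probe is shown because it gives the most repeated measurement of this set.
Bub1 probe: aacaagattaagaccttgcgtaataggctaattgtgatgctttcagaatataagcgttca
Averaged over spots, Bub1 read 0.28, 0.54 and 0.34 after Foxo3 knockdown and −3.52, −3.40 and −3.48 on the control arrays. The 3 control arrays agreed closely, and the knockdown arrays lay far above them. The rise was 3.85 (SE 0.117, 95% confidence interval 3.57 to 4.13, limma adjusted p = 0.0004), or 14.4-fold. As scaled here it ranked 3 by size of rise and 1 by p-value among all 27031 kept probes. Its rise was 2.09 at the common floor and 2.35 with normexp background correction, in both cases below those of Aurka (2.63 and 2.52) and Plk1 (2.49 and 2.36). In processed signal the arrays gave 419, 737 and 498 units after Foxo3 knockdown and 27.6, 33.7 and 27.3 units on the control arrays.

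The repeated spots show how precise a reading is at both levels. With Foxo3 siRNA the spots of Bub1 ran from 0.19 to 0.35 on replicate 1, from 0.46 to 0.59 on replicate 2 and from 0.16 to 0.53 on replicate 3. With nontargeting siRNA they ran from −3.99 to −3.11, from −3.75 to −3.07 and from −3.86 to −3.04. No spot of one group came near a spot of the other. The SD between spots of 1 array was 0.0405, 0.0442 and 0.120 after Foxo3 knockdown and 0.294, 0.193 and 0.267 on the control arrays, so a single spot is less precise near background. In the control group 7, 10 and 9 of the 10 spots were called well above background.

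**Figure D2:**
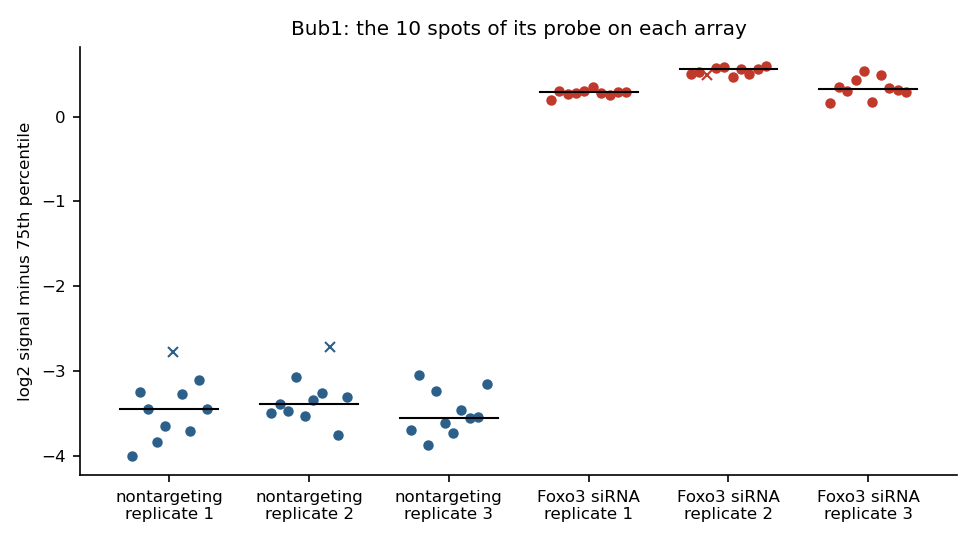
Each spot of the Bub1 probe on each array, as log2 signal minus the array's 75th percentile. Crosses are spots the scanner software marked as outliers, which were left out, and black lines are medians. The spots with nontargeting siRNA (blue) spread from −3.99 to −3.04 and those with Foxo3 siRNA (red) from 0.16 to 0.59.

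Bub1b encodes BUBR1, a part of the mitotic checkpoint complex that inhibits the anaphase-promoting complex. Its probe (chr2:118466830-118466889, plus strand) is shown for comparison with that of its relative Bub1.
Bub1b probe: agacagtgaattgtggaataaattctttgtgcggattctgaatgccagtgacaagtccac
Bub1b read 0.08, 0.48 and 0.08 after Foxo3 knockdown and −3.06, −2.77 and −2.29 on the control arrays. Its control arrays were more scattered than those of Bub1, with replicate 3 highest, but stayed below all knockdown arrays. The rise was 2.92 (SE 0.226, 95% confidence interval 2.38 to 3.46, limma adjusted p = 0.0011), or 7.57-fold.

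Ttk encodes MPS1, the kinase that recruits the other checkpoint proteins to unattached kinetochores. Its probe spans chr9:83758726-83761669, or 2944 bases of genome for 60 bases of probe, and was above background on 2 Foxo3 siRNA arrays and on no nontargeting siRNA array. It read −3.73, −2.95 and −3.71 after Foxo3 knockdown and −5.17, −6.07 and −5.87 on the control arrays. The groups did not overlap, but the reading of −3.71 is from Foxo3 siRNA replicate 3, where Ttk was not above background and where the undetected Aurkb and second Cdk1 probes also had their highest values. Against the lowest signal well above background on the control arrays, Ttk came out 1.36-fold higher with Foxo3 siRNA. This figure sets the mean of the 3 Foxo3 siRNA arrays against, per control array, the higher of that lowest signal and the probe's own signal. The mean includes the reading of replicate 3, which was not above background, so the figure is not a lower bound. No fold is read for Ttk, and without a filter Ttk did not pass the test (limma adjusted p = 0.0606). With Foxo3 siRNA replicate 3 left out, Ttk passed the filter only through the Foxo3 siRNA group, where it was high. The filter therefore favoured its call in that setting (limma adjusted p = 0.0182).

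Pbk encodes a kinase of the MAP kinase kinase type that CDK1 and cyclin B phosphorylate in mitosis. Its probe (chr14:66436224-66436283, plus strand) read −0.97, −0.22 and −0.39 after Foxo3 knockdown and −4.69, −3.65 and −3.89 on the control arrays. On 1 of 3 control arrays it was well above background, and replicate 1 was the lowest array of each group. Pbk rose by 3.55 (SE 0.319, 95% confidence interval 2.78 to 4.31, limma adjusted p = 0.00161), or 11.7-fold. This size is read against 2 control values that were not above background, and it was 1.18 at the common floor and 1.69 with normexp background correction.

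Melk encodes a kinase related to AMPK that is most abundant in dividing and progenitor cells. Its probe (chr4:44377041-44377100, plus strand) read −0.82, −0.33 and −0.71 after Foxo3 knockdown and −3.98, −3.71 and −3.27 on the control arrays. It was above background on 2 of 3 control arrays, and no control value approached a knockdown value. The rise was 3.04 (SE 0.222, 95% confidence interval 2.50 to 3.57, limma adjusted p = 0.000977), or 8.21-fold. At the common floor it was 1.08 and with normexp background correction 1.44.

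**Figure D3:**
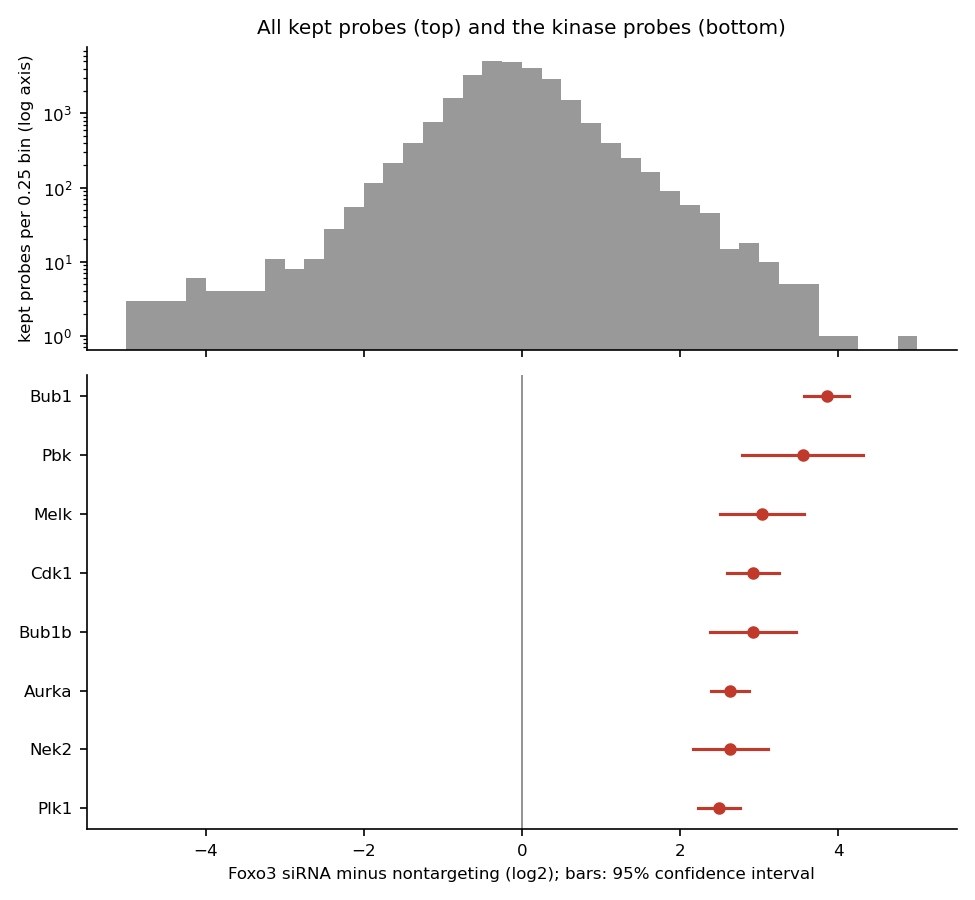
Top, number of kept probes in each 0.25-wide bin of log2 difference (Foxo3 siRNA minus nontargeting siRNA), on a log axis. Bottom, the 8 kept kinase probes with their 95% confidence intervals; all of them, from 2.49 for Plk1 to 3.85 for Bub1, lie in the far right tail of the upper plot, and all intervals stay above 2.

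The order of the arrays within a group was shared by the kinases with Foxo3 siRNA and mixed on the control arrays. Among the Foxo3 siRNA arrays replicate 2 was highest for 8 of the 8 kept kinases and replicate 1 lowest for 7, while among all kept probes replicate 2 was highest for 32.5% and replicate 1 lowest for 29.0%. Among the control arrays replicates 1, 2 and 3 were highest for 1, 5 and 2 kinases and lowest for 5, 0 and 3. Centred on each probe's mean, the kinases averaged 1.35, 1.68 and 1.47 after Foxo3 knockdown and −1.70, −1.39 and −1.42 on the control arrays. The array that gave the highest kinase values was also the one with the most spots above background, 37532, and whether depth of signal has a part in this order was not tested. The knocked-down Foxo3 probe ran in another order, with replicate 1 highest and replicate 3 lowest.

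The rises were as large without the array that had the fewest spots above background. Without Foxo3 siRNA replicate 3 the rises were 3.88 for Bub1, 3.48 for Pbk, 3.08 for Melk, 2.99 for Bub1b, 2.96 for Cdk1, 2.63 for Aurka, 2.63 for Nek2 and 2.51 for Plk1, with limma adjusted p from 0.00521 to 0.00949. Since the second slide row holds no control array, a fit with the slide row as a block sets 1 Foxo3 siRNA array, replicate 1, against 3 controls. Its rises were 3.75 for Bub1, 3.11 for Pbk, 2.95 for Cdk1, 2.84 for Melk, 2.79 for Bub1b, 2.58 for Aurka, 2.45 for Plk1 and 2.38 for Nek2, and all 8 were called (adjusted p from 0.0117 to 0.0233, against 4.14% of kept probes called higher). A fit on the first slide row alone gives the same differences with its own spread, and in it 7 of the 8 were called (1.65% of probes tested were called higher), and Pbk had an adjusted p of 0.0587. Ttk was tested as well on the first slide row alone, where it differed by 1.97 on the log2 scale and was not called. In the fit on that row alone the lone array is assumed to vary like the controls.

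The authors' deposited table, which gives a log2 fold change for each spot, showed rises of the same 8 probes. In it, Bub1 rose by 2.91 to 3.35 over its 10 spots (adjusted p from 0.0129 to 0.0168). The authors' deposited table put Pbk at 2.61, Aurka at 2.57, Bub1b at 2.46, Plk1 at 2.39, Cdk1 at 2.38, Nek2 at 2.26 and Melk at 2.19, all with an adjusted p of at most 0.0289. Of its 62976 spots, which include control spots and probes not kept here, 1.4% were called higher. Among the 27031 probes kept here 734 were called higher in it. Pbk and Melk had been kept only through the Foxo3 siRNA group, where they were high. Ttk, Aurkb and the other 2 Cdk1 probes did not pass in the authors' deposited table (adjusted p from 0.0755 to 0.811). The folds of the dimmer probes were smaller in the authors' deposited table than here, and those of Aurka and Plk1 were closest.

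**Figure D4:**
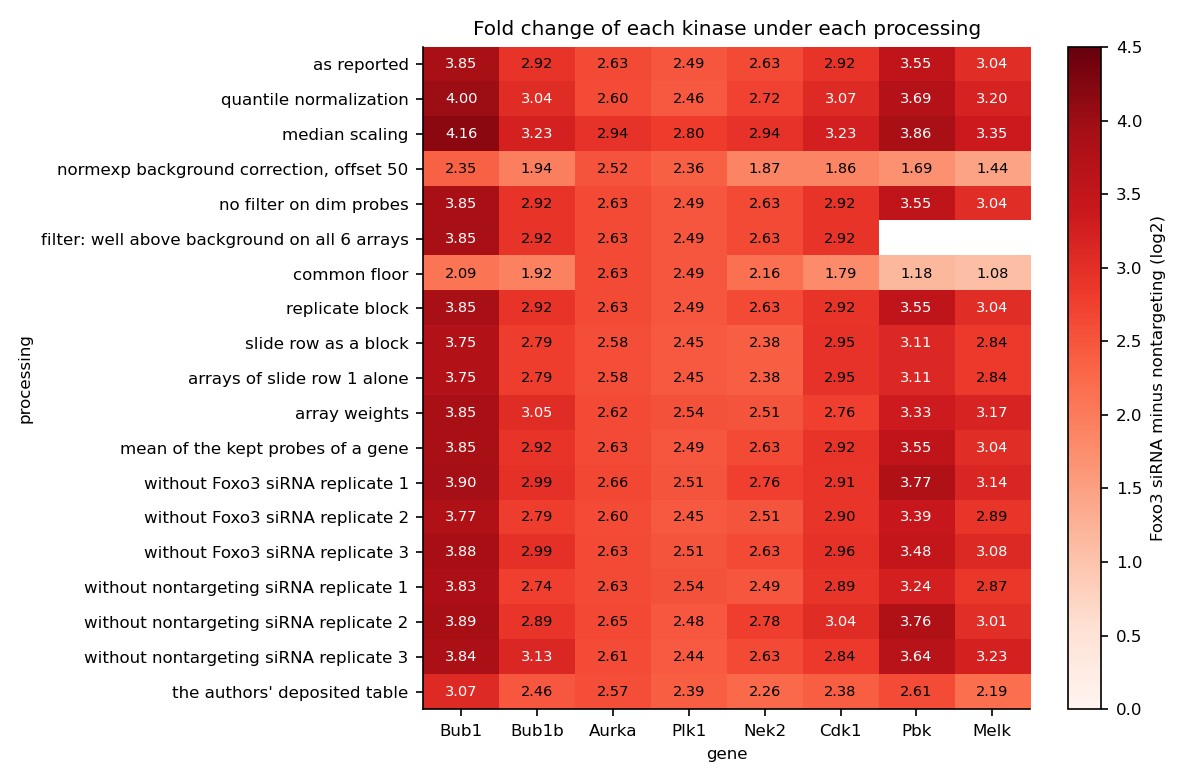
Log2 difference (Foxo3 siRNA minus nontargeting siRNA) of the 8 kept kinases under each way of processing the arrays; darker red is a larger rise, and a blank cell is a probe that the stricter filter removed. Every cell is above 1, and Aurka, from 2.52 to 2.94, and Plk1, from 2.36 to 2.80, move least.

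The partners of CDK1 were measured in full. Of 15 genes in this group 10 rose and 2 fell, with a median difference of 0.83 and a range from −0.83 to 3.15, where 13% of all 19251 measured genes rose and 13.1% fell. Cdc25c, the phosphatase that activates CDK1, rose by 3.15 (SE 0.139, limma adjusted p = 0.000506). It was above background on 2 of 3 control arrays and passed the filter only through the Foxo3 siRNA group, where it was high. With only probes above background on all 6 arrays tested, 9 of 14 partners were called higher and 2 lower. Of the 17934 probes so tested 3983 were called higher and 3423 lower. The cyclins of CDK1 also rose, Ccna2 by 2.64 (SE 0.145) and Ccnb1 by 1.87 (SE 0.109), and Cks1b, a small subunit of the CDK complexes, rose by 2.36 (SE 0.119). The 2 that fell were CDK inhibitors, Cdkn1a (p21) by 0.82 and Cdkn1b (p27) by 0.83, with adjusted p of 0.00829 and 0.0157, and were named after their values were seen. With the slide row as a block 7 of the 15 were called, all higher, so neither inhibitor passed.

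Genes that work with the Aurora kinases and PLK1 were mostly higher. Of 14 genes 13 were measured and 10 rose, with a median of 1.95, where 13% of all measured genes rose. Among the 10, Kif2c was above background on no control array and passed the filter only through the Foxo3 siRNA group, where it was high. With only probes above background on all 6 arrays tested, 10 of 11 were called higher, against 22.2% of the probes so tested. Birc5 (survivin), the Aurora B partner, rose by 3.18 (SE 0.118, limma adjusted p = 0.000418) while the Aurkb probe was not well above background. Prc1, which bundles the central spindle, rose by 2.47 (SE 0.128), Sgo1, protector of centromere cohesion, by 2.46 (SE 0.149) and Tacc3, a spindle protein and Aurora A substrate, by 2.19 (SE 0.134). The 3 that did not pass were Cep192 at 0.55 (adjusted p = 0.0746), Incenp at 0.25 (adjusted p = 0.162) and Ajuba at −0.83 (adjusted p = 0.323).

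Of 15 spindle checkpoint partners of BUB1, BUBR1 and TTK, 14 were measured and 10 rose, with a median of 1.61, where 13% of all measured genes rose. Cenpe, the kinetochore motor that activates BUBR1, rose by 2.99 (SE 0.152), Spc24 by 2.84 (SE 0.153) and Nuf2 by 2.30 (SE 0.132), both of the NDC80 complex that grips microtubules. Cdc20, the target of the checkpoint, rose by 2.46 (SE 0.122, limma adjusted p = 0.000506). The direct scaffold of both BUB kinases, Bub3, stood at 0.45 and just missed the threshold (adjusted p = 0.05), and Mad1l1 at 0.37 (adjusted p = 0.0795), Knl1 at 0.21 (adjusted p = 0.437) and Zw10 at −0.16 (adjusted p = 0.435) did not pass. Knl1 was represented by its brightest probe, and 2 other kept probes of it were called higher.

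Other kinases of mitosis showed smaller differences. Of 13 genes 11 were measured, 3 rose and 2 fell, with a median of 0.22 and a range from −0.94 to 0.71, so that none of the 11 reached the rise of any kept kinase as scaled here. Over all measured genes 13% rose and 13.1% fell. Vrk1, which phosphorylates the chromatin tether BAF, rose by 0.71 (SE 0.179, limma adjusted p = 0.0322) and Stk10 by 0.59 (SE 0.145). Nek7, a NEK2 relative that acts on the spindle, fell by 0.94 (SE 0.117, adjusted p = 0.00393), and Slk fell by 0.64 (SE 0.148). With the slide row as a block 1 of the 11 was called, and with any 1 array left out 1 to 3 were.

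Of 19 genes for phosphatases that undo mitotic phosphorylation and for their regulators, all measured, 3 rose and 3 fell, with a median of −0.03. Over all measured genes 13% rose and 13.1% fell, so these counts are near the background. Cdca2, which brings phosphatase PP1 to chromatin at mitotic exit, rose by 2.42 (SE 0.169, limma adjusted p = 0.000938), and Ppp1cc, a PP1 catalytic subunit, rose by 0.55 (SE 0.101). The CDC14 pair went opposite ways, with Cdc14b falling by 2.29 (SE 0.299, adjusted p = 0.0044) and Cdc14a rising by 1.20 (SE 0.219, adjusted p = 0.012). Cdc14a was above background on 2 of 3 Foxo3 siRNA arrays. With the slide row as a block 1 of the 19 was called, and without nontargeting siRNA replicate 2 there were 3.

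Of 39 relatives of the kinases that serve outside mitosis, 26 were measured, 3 rose and 2 fell, with a median of 0.02 and a range from −1.05 to 0.97. Over all measured genes 13% rose and 13.1% fell, so these counts do not exceed the background. Nek4 rose by 0.97 (SE 0.154, limma adjusted p = 0.00789), Cdk4, the G1 cyclin-dependent kinase, by 0.71 (SE 0.132) and Cdk8 of the Mediator complex by 0.66 (SE 0.163), and Nuak1, an AMPK relative like Melk, fell by 1.05 (SE 0.164, above background on 2 of 3 Foxo3 siRNA arrays). Cdk2 stood at 0.07 (adjusted p = 0.772). With the slide row as a block limma called 0 of the 26, with 5 at an unadjusted p under 0.05, and with 1 array left out it called 2 (without nontargeting siRNA replicate 2) to 4.

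Of 16 factors that regulate G2 and M genes 15 were measured, 5 rose and 2 fell, with a median of 0.18. Over all measured genes 13% rose and 13.1% fell, so the count of genes that fell is at the background. Mybl2 (B-MYB) rose by 1.82 (SE 0.175, limma adjusted p = 0.00191) and Foxm1, the forkhead factor of G2, by 1.49 (SE 0.136, adjusted p = 0.00164). Rbl1 (p107) rose by 1.20 (SE 0.240) and Tfdp2, an E2F partner, by 0.76 (SE 0.143). With the slide row as a block 3 of the 15 were called, and with any 1 array left out 2 to 4 were.

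**Figure D5:**
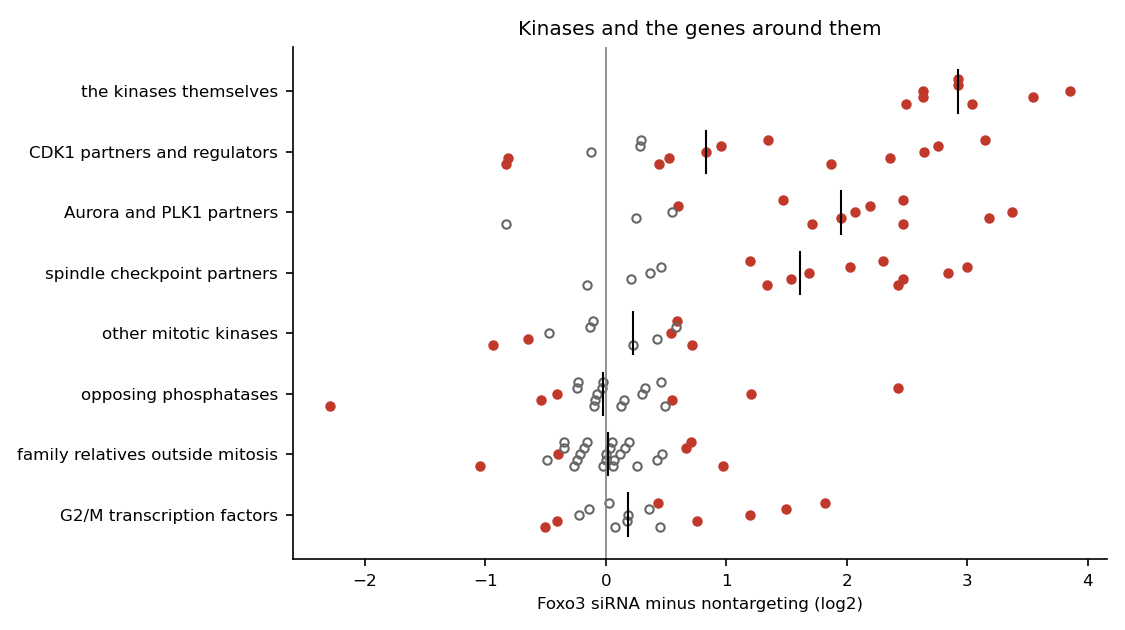
Log2 difference (Foxo3 siRNA minus nontargeting siRNA) of each measured gene, grouped by role; filled red points passed the test, hollow points did not, and black bars are group medians. The kinases lie between 2.49 and 3.85, the partners of CDK1, of the Aurora kinases and PLK1 and of the checkpoint have medians of 0.83, 1.95 and 1.61, and the other groups have medians from −0.03 to 0.22.

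Direction in the smaller groups depended on scaling. Subtracting each array's median in place of its 75th percentile moved the median of all kept probes from −0.16 to 0.15, and the share of called probes that were higher from 47.7% to 77.4%. Under it, Cdkn1a and Cdkn1b were no longer among the calls (10 of the 15 CDK1 partners higher, 0 lower, with 12 at an unadjusted limma p under 0.05). Over all 27031 kept probes 3961 were then called higher and 1157 lower. The 19 phosphatase genes then had 5 higher and 1 lower. The 26 relatives outside mitosis had 3 and 1, which does not exceed the shares over all kept probes. Neither Nek7 nor Slk was called (of 11 other mitotic kinases 4 higher and 0 lower, 6 at an unadjusted limma p under 0.05). The G2/M factors had 5 higher and 0 lower (7 at an unadjusted limma p under 0.05). The 6 kinase probes above background on every array were called higher under both scalings. So were Pbk and Melk, which the filter favoured.

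Transcripts that followed the kinases most closely across the 6 arrays, measured by Pearson's r with the mean of the centred kinase values over 10878 genes, were Smc2 (r = 0.99871), Kif11 (r = 0.99869), Cenpp (r = 0.99862), Ska1 (r = 0.9985) and Slc29a1 (r = 0.99844). Smc2 is a condensin subunit, Kif11 the motor that pushes spindle poles apart, Cenpp a centromere protein, Ska1 a kinetochore protein and Slc29a1 a nucleoside transporter. They rose by 1.83, 1.69, 1.92, 3.19 and 1.69. The 6 points are 3 and 3 arrays of the same groups, so r mainly describes the step between groups.

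Promoters were read for the kinases because their transcripts moved together. RefSeq windows of 300 bases, 250 before and 50 after the start site, on GRCm38.p6, were matched for 8 of the 10 genes. The letters searched on both strands were TTTGAA and TTCGAA, forms of the cell cycle homology element bound by the MuvB complex, CCAAT, the box bound by NF-Y, and TGTTTAC, a forkhead site; TTCGAA reads the same on both strands. The windows of 4 kinases with large rises or central roles, and that of Melk, which has none of the matches, are printed 5′ to 3′ along the gene's strand with the matches in capitals.
Bub1, chr2:127831810-127832109, minus strand: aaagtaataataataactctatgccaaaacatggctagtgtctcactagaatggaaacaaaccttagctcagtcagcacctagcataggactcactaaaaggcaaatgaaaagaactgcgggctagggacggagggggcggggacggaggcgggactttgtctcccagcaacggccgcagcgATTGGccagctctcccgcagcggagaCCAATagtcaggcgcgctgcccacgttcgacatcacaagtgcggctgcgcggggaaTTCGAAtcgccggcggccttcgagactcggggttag
Aurka, chr2:172370521-172370820, minus strand: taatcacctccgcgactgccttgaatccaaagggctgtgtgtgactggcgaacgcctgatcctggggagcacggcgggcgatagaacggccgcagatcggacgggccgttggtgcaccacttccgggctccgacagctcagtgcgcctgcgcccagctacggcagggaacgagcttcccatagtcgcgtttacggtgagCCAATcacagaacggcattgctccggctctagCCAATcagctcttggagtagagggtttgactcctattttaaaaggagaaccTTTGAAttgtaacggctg
Plk1, chr7:122159185-122159484, plus strand: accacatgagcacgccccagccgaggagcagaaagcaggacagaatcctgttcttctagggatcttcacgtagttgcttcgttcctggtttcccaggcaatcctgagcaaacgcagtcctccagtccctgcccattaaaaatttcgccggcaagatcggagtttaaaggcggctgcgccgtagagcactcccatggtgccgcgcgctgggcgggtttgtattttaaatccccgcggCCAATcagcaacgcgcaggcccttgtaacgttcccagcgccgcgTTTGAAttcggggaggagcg
Cdk1, chr10:69352863-69353162, minus strand: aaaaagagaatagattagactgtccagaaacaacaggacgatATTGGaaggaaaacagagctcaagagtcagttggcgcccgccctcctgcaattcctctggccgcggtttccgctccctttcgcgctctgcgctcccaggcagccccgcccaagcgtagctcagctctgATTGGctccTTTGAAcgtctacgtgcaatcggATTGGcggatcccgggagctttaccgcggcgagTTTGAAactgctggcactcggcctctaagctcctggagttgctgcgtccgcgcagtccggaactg
Melk, chr4:44300667-44300966, plus strand: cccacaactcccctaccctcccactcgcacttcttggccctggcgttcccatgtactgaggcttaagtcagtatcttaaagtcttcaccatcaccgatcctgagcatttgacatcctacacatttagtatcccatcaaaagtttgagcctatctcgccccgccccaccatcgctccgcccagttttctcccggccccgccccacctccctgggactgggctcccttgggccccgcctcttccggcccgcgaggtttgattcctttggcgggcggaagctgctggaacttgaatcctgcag

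TTTGAA was present in 5 of the 8 kinase windows and in 17.9% of all 32851 windows of that length, and TTCGAA in 2 of the 8 and in 1.56%. CCAAT was present in 7 of the 8, every window except that of Melk, and in 37.4% of all windows. CCAAT together with TTTGAA or TTCGAA was present in 6 of the 8 (Bub1, Bub1b, Aurka, Plk1, Ttk and Cdk1) and in 7.52% of all windows. TGTTTAC was in 0 of the 8 and in 3.65%. Counting bases from the start site with no base 0, TTTGAA began at base 33 of Aurka and base 31 of Plk1, and TTCGAA at base 15 of Bub1. In Cdk1 TTTGAA began at −71 and −15, between and after CCAAT matches (on the opposite strand) at −208, −80 and −48. Ttk, whose probe was dim, had CCAAT at −65 and −28 and TTTGAA on the opposite strand at base 8. A match is a run of letters and not a measured site, and a missing match says only that the letters are not in that window.

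Markers of erythroid and other cells were read beside the kinases. Of the erythroid markers Tfrc, the transferrin receptor, rose by 0.60 (SE 0.111, limma adjusted p = 0.0125), and Alas2 at −0.41, Hba-a1 at −0.46 and Hbb-b1 at −0.55 did not pass (adjusted p from 0.0528 to 0.0723). Of 6 megakaryocyte markers 3 rose, Itga2b by 1.26, Gp6 by 1.41 and Gp1ba by 0.59, and their summed level was 38.4 to 69.4 after Foxo3 knockdown and 38.4 to 59.2 on the control arrays. The 4 measured of 6 macrophage or granulocyte markers differed by −0.92 to −0.41 (adjusted p from 0.067 to 0.186), with a summed level of 66.8 to 73.5 against 72.6 to 118 and with Mpo and Ly6g below background on every array. The summed level of lymphocyte markers, 2 of 4 measured, was 3.64 to 4.48 against 4.81 to 6.57, and that of fibroblast markers, 1 of 4 measured, was 0.227 to 0.414 against 0.254 to 0.376 with Col1a1, Pdgfra and Dcn below background. The part of a changed cell mixture in the kinase rises was not tested.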

How the data were processed

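Per the file headers, the scanner's spot intensity values were made by the authors with Feature Extraction 10.7.3.1 from Agilent. Background was subtracted, signals not above background became surrogate values, and the headers record no normalization between arrays. The authors' deposited table lists for each spot a log2 fold change with its p-value, raw and adjusted, made with limma per the submitters' processing notes; the normalization behind it is not given in the sources used here. From the 6 arrays, control spots were left out, outlier spots set to missing, the 75th percentile of each array's log2 signal subtracted, and spots of a probe averaged. A probe was well above background where more than 50% of its spots were. All 27031 kept probes were fitted with limma 3.58.1 (lmFit, eBayes, two-sided) in R 4.3.3 with Benjamini-Hochberg adjustment, a procedure tested on simulated data. A gene with several kept probes is represented by its brightest. The number of arrays limits the precision.

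The kinases and the gene groups were chosen with earlier results of these data known. The text names the 10 kinases, Foxo3, in each group the up to 4 measured genes with the smallest adjusted p, and the 5 genes most like the kinases across arrays; other names were added after values were seen. Alternatives covered scaling, background correction, the filter, a common floor, slide row, array weights, a replicate block, leaving out each array and the authors' table. Replicate numbers were not used as pairs. The array's annotation gives mm9 coordinates; the exon or UTR under a probe was not analysed here. Values of 2 marker genes are not reported here.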

Additional observations from a re-analysis of the deposited data

How the results depend on the processing

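Of 142 kinase fold changes over 18 alternatives, 141 kept their direction and their call; the exception was Pbk on the first slide row alone (3.11, adjusted p = 0.0587). The median kinase rise of 2.92 was 3.23 with median scaling, 1.91 with normexp background correction, 2.00 with a common floor and 2.43 in the authors' deposited table; normexp adds an offset of 50 and the floor raises dim values, which shrinks folds of dim probes, and the lowest values were those of Melk (1.08) and Pbk (1.18) at the floor. It ran from 2.81 to 2.98 with 1 array left out. The Foxo3 probe had an adjusted p of 0.0616 (−2.42) with no filter.

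Of 27031 kept probes 6878 were called; this became 635 with no filter, 1892 with the slide row as a block, 751 on row 1 alone, 10809 with array weights, 1113 in the authors' deposited table, and 2681 (without nontargeting siRNA replicate 2) to 6002 with 1 array left out. Calls among CDK1 partners (12) became 5 with no filter, 7 with the row block, 5 on row 1 and 6 in the authors' table; Aurora and PLK1 partners (10) became 5 and checkpoint partners (10) became 6 on row 1. G2/M factors (7) became 2, 3, 2 and 2 in the same 4 settings, and 2 to 4 with 1 array left out. Phosphatases (6) became 1, 1, 1 and 2, and 3 to 5. Other mitotic kinases (5) became 0 (7 at an unadjusted limma p under 0.05), 1, 1 and 1, 3 at the common floor, and 1 to 3. Relatives outside mitosis (5) became 0, 0, 0 and 0 (6, 5 and 4 at an unadjusted limma p under 0.05 in the first 3), 8 with array weights, and 2 to 4. In these counts with 1 array left out the fewest calls came without nontargeting siRNA replicate 2, and equally few other mitotic kinases were called without replicate 3 of that group. Leaving out any array but Foxo3 siRNA replicate 1 moved the count over all probes by over 1.5 times (3855 and 3781 without Foxo3 siRNA replicates 2 and 3, 3703 and 4218 without nontargeting siRNA replicates 1 and 3).

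Same-numbered arrays of the groups had deviations that correlated at 0.164, −0.310 and 0.114, and differently numbered arrays at −0.370 to 0.292. With so few arrays these values cannot show whether samples of 1 number were handled together. With a replicate block 6902 probes and all 8 kinases were called, of which the filter favoured Pbk and Melk. Signal over background limits Aurkb, Ttk and 2 Cdk1 probes, for which no fold can be read.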
